A study of Rattus norvegicus with 19 samples.

Results

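Transcripts of 10 genes of the transforming growth factor-β (TGF-β) pathway were measured in rat hearts. They code for the ligands (Tgfb1, Tgfb2, Tgfb3), a matrix protein of the latent TGF-β binding family (Ltbp2), the receptors (Tgfbr1, Tgfbr2, Tgfbr3) and intracellular SMAD proteins (Smad2, Smad3, Smad7). The genes were taken by name from the pathway because pirfenidone (PFD), an antifibrotic drug given to some of the rats, is described as acting on it. They were chosen with earlier results of these data known, a limit on every share set beside that of all genes. All 10 were found among the 17455 gene symbols counted, and all 10 were among the 12388 genes with enough reads to be tested.

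TGF-β ligands are secreted in a latent form that is bound in the extracellular matrix, and the released ligand joins type II and type I receptor kinases, which phosphorylate SMAD2 and SMAD3. These enter the nucleus with SMAD4 and change transcription, and among the genes they induce is Smad7, whose product inhibits the receptors. In the heart the pathway is best known for turning fibroblasts into matrix-producing myofibroblasts.

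The study asked how empagliflozin (EMPA, a glucose transporter inhibitor) and PFD, alone or together, act on heart failure with preserved ejection fraction (HFpEF). All 19 libraries came from Sprague-Dawley rats that were 24 weeks old when the study began, with strain labelled wildtype and sex labelled male. To bring on HFpEF, nitric oxide synthases were inhibited by L-NAME in the water (0.5 g/L), and the same rats ate food rich in fat, with 60% of its energy from lard, over 5 weeks. Control rats had neither, so diet and L-NAME differ together between HFpEF and control. Hearts were taken at week 5 from control rats (control 5w, n = 3) and from rats with HFpEF (HFpEF, n = 3). At week 9 they were taken from control rats (control 9w, n = 3) and from 4 groups in which HFpEF had been induced and which then received phosphate-buffered saline by gavage for 4 weeks. The saline was given without a drug (untreated, n = 3) or daily with EMPA at 0.35 g/kg/d (EMPA, n = 2), PFD at 0.3 g/kg/d (PFD, n = 2) or both at these doses (EMPA + PFD, n = 3). Whether L-NAME and the diet went on during these 4 weeks is unclear. The study's methods give 5 weeks, and its discussion speaks of 9 weeks of induction. The tissue is labelled heart, and the study's methods name the left ventricle. A library is named here by its group and replicate number.

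Total counts per library ran from 7430539 (EMPA 1) to 13017754 (control 5w 2), with a median of 9951011. Levels are in CPM, which are counts scaled to each library's total and normalized for its composition, and at this depth the member counts ran from 34 (Ltbp2, EMPA + PFD 1) to 14964 (Ltbp2, HFpEF 1). Differences are log2 fold changes with a standard error (SE), and a gene passed at an adjusted p under 0.05 over all 12388 genes. Every adjusted p is from edgeR unless DESeq2 is named. With 3 libraries against 3, an exact permutation test of a single gene could not go below 0.10, so no such test is given.

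Some libraries did not match their labels or stood apart. Eif2s3y, a gene on the Y chromosome, had 0 counts in 7 libraries labelled male (HFpEF 1 and 3, all 3 untreated and both PFD) and 613 to 1321 counts in the other 12. The comparisons of untreated with control 9w, EMPA or EMPA + PFD therefore set libraries without Eif2s3y against libraries with it, and this split and the group cannot be told apart there. In a fit with Eif2s3y as a term, the term is estimated from HFpEF 2 against HFpEF 1 and 3 alone, the only group in which libraries differ in it. It is therefore no test of the split in those 3 comparisons. For untreated against HFpEF, and for the disease difference at week 9 minus that at week 5, the fit with the term repeats leaving out HFpEF 2. The ranges over alternatives leave the term out in these 5 tests. Where HFpEF is compared with control 5w or EMPA + PFD, the fit with the term or only libraries with counts rests on HFpEF 2 as the single HFpEF library. PFD against untreated lies wholly within libraries without it, and control 9w against control 5w and EMPA + PFD against EMPA wholly within libraries with it. RT1-CE16, a gene of the rat major histocompatibility complex, had at most 3 counts in 8 libraries (control 5w, HFpEF and EMPA) and 308 to 922 in the other 11, so these groups also differ in this gene. Bmp10, a ligand of atrial heart muscle, stood at 31.2, 127 and 33.9 CPM in control 9w 1, control 9w 3 and untreated 2, and at no more than 0.984 CPM in the others.

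Heart muscle markers fitted the tissue label: 7 of 8 listed cardiomyocyte genes were in the files, Myh6 had the highest mean over all libraries, and their summed level ran from 6943.5 CPM (HFpEF 1) to 67936 CPM (EMPA + PFD 2). The gene said to lead a list had its highest mean over the 19 libraries and need not lead in each library. The 4 atrial genes, led by Nppa, summed to 47.5 CPM in untreated 1 but to 14834 CPM in untreated 2 and 23206 CPM in control 9w 3. Adipocyte markers stayed near 0 (at most 5.44 CPM summed). Smooth muscle and pericyte markers, led by Pdgfrb, summed to between 882 CPM (an EMPA + PFD library) and 2135 CPM (an EMPA library), and the remaining lists are given beside the results they move with. Markers at 0 in at least 1 library included Ms4a1, Ppbp, Ahsp, Msln and adipocyte genes.

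Tgfb1 codes for the ligand most studied in cardiac fibrosis. It stood at 53.9, 68.6 and 63.4 CPM in the untreated libraries and at 37.5, 31.2 and 32.0 CPM in the EMPA + PFD libraries. The EMPA + PFD libraries were the 3 lowest of all 19, and no library of another group reached down to them. The single drugs gave 50.7 and 55.4 CPM (EMPA) and 56.1 and 53.0 CPM (PFD), within or just under the untreated range. With both drugs Tgfb1 fell against untreated (log2 fold change -0.89, SE 0.18, adjusted p = 0.0127), and all 3 treated libraries lay below all 3 untreated ones. Whether fewer cells with the transcript or less of it per cell lie behind such a difference cannot be told apart in bulk tissue. The call was lost without untreated 2 (adjusted p = 0.0586), EMPA + PFD 2 (0.0694) or EMPA + PFD 3 (0.0509), and also in these groups fitted alone (0.0871) or without the libraries with Bmp10 (0.0813). Over 14 alternative settings its adjusted p ran from 0.000319 to 0.0871.

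At week 5, Tgfb1 stood at 50.2, 73.4 and 80.1 CPM in control hearts and 118, 76.9 and 98.0 CPM in HFpEF hearts, and the highest library of all was HFpEF 1. HFpEF 2, which alone among the HFpEF libraries has Eif2s3y counts, lay inside the control range. Tgfb1 rose in HFpEF (log2 fold change 0.52, SE 0.18, adjusted p = 0.0495), close to the threshold. The adjusted p was 0.163 without control 5w 1, 0.0691 without control 5w 2, 0.19 without HFpEF 1 and 0.0885 without HFpEF 3. Among libraries with Eif2s3y counts alone the log2 fold change was 0.24. The call was also lost with no filter beyond 1 count (0.0533), in these groups fitted alone (0.166), with the replicate number as a block (0.0737), with Eif2s3y as a term (0.63) or among libraries with Eif2s3y counts (0.521), and over all 15 alternatives the adjusted p ran from 0.0248 to 0.63. At week 9 the control level was 59.8, 69.1 and 54.0 CPM, and untreated hearts overlapped it (log2 fold change 0.02, 95% interval -0.35 to 0.40).

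All 3 untreated libraries at week 9 were below the 3 HFpEF libraries at week 5 for Tgfb1, which gave -0.65 (SE 0.18) and did not pass (adjusted p = 0.0814). It passed by DESeq2 (0.0148), without the libraries with Bmp10 (0.0488), without HFpEF 2 (0.0351) and without untreated 2 (0.0315), in a range of adjusted p from 0.0148 to 0.38 over 15 alternatives. EMPA + PFD hearts were the farthest from week-5 HFpEF (log2 fold change -1.54, SE 0.18, adjusted p = 0.000176), which passed in 15 of 15 alternatives. The order of the group means was HFpEF (97.6 ± 20.5 CPM, SD), control 5w (67.9 ± 15.7), untreated (62.0 ± 7.45), control 9w (61.0 ± 7.61), PFD (54.5 ± 2.19), EMPA (53.1 ± 3.29) and EMPA + PFD (33.5 ± 3.43). Neighbours in that order overlapped, except that EMPA + PFD was apart from EMPA.

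Tgfb2, a ligand needed for heart valve and septum formation, varied widely within groups. Control 5w gave 22.4, 102 and 93.3 CPM, HFpEF 51.0, 22.8 and 43.5 CPM and control 9w 41.2, 20.0 and 95.4 CPM. Untreated gave 34.0, 56.6 and 58.8 CPM, EMPA 35.7 and 109 CPM, PFD 68.3 and 27.6 CPM and EMPA + PFD 29.3, 26.9 and 44.2 CPM. Control 9w 3 held 4.76 times the level of control 9w 2, and every group overlapped its neighbour in the order control 5w, EMPA, control 9w, untreated, PFD, HFpEF, EMPA + PFD. Tgfb2 did not pass in any of the 11 comparisons, and its log2 fold changes in the 9 comparisons between groups ran from -1.11 (EMPA + PFD against EMPA) to 0.54 (EMPA against untreated). Its disease difference at week 9 minus that at week 5 was 0.82, and its sum-of-drugs value, defined with the comparisons of the drugs, was -1.06.

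Tgfb3, a ligand known for its part in scarring and palate closure, stood at 68.7, 376 and 318 CPM in control 5w and 376, 247 and 237 CPM in HFpEF. At week 9 it stood at 107, 78.6 and 115 CPM in control 9w, 67.2, 214 and 70.4 CPM in untreated, 66.6 and 239 CPM in EMPA, 76.8 and 70.3 CPM in PFD and 68.7, 39.8 and 70.7 CPM in EMPA + PFD. High levels (over 200 CPM) occurred in control 5w 2 and 3, in all 3 HFpEF libraries, in untreated 2 and in EMPA 2. Their group mates control 5w 1, untreated 1, untreated 3 and EMPA 1 stayed near 70 CPM. The cardiomyocyte sum was 50162.7 CPM in control 5w 1 against 18706.5 and 21613.5 CPM in control 5w 2 and 3. It was 46144 and 36656 CPM in untreated 1 and 3 against 15065 CPM in untreated 2, and 29473.5 CPM in EMPA 1 against 21329 CPM in EMPA 2. The part of this in the Tgfb3 levels was not tested. Tgfb3 was lower in EMPA + PFD than in HFpEF (log2 fold change -2.26, SE 0.60, adjusted p = 0.00792). With Eif2s3y as a term this comparison gave -2.05 and did not pass (adjusted p = 0.0651, range 0.000404 to 0.0651 over 15 alternatives). Among libraries with its counts, where HFpEF 2 is the only HFpEF library, the value was -2.14 and did not pass either. Against untreated, EMPA + PFD gave -0.97 (95% interval -2.22 to 0.27), which did not pass and was -0.20 without untreated 2. From control 5w to control 9w the value was -1.34 (adjusted p = 0.0867), and it passed by DESeq2 (0.0499) and without control 5w 1 (0.0172), in a range from 0.0172 to 0.28. Untreated against HFpEF gave -1.29 (adjusted p = 0.206), and -2.06 without untreated 2 (adjusted p = 0.0412, range 0.0412 to 0.547).

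The group means of Tgfb3 ran in the order HFpEF (287 ± 77.3 CPM, SD), control 5w (254 ± 163), EMPA (153 ± 122), untreated (117 ± 84.1), control 9w (100.1 ± 19.1), PFD (73.6 ± 4.54) and EMPA + PFD (59.7 ± 17.3). Of these neighbours, only control 9w and PFD had ranges that did not overlap.

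Ltbp2 codes for a matrix protein of the latent TGF-β binding family that is found with elastic fibres and that, unlike its relatives, is not known to bind latent TGF-β. Control 5w gave 8.76, 772 and 638 CPM, HFpEF 1074, 89.4 and 412 CPM and control 9w 18.2, 9.96 and 76.4 CPM. Untreated gave 7.49, 77.7 and 35.1 CPM, EMPA 18.0 and 466 CPM, PFD 28.8 and 6.48 CPM and EMPA + PFD 4.02, 14.2 and 10.8 CPM. The level within 1 group differed 88.1-fold in control 5w, 25.9-fold in EMPA, 12.0-fold in HFpEF and 10.4-fold in untreated. The libraries over 400 CPM were control 5w 2 and 3, HFpEF 1 and 3 and EMPA 2, and each of these also had over 200 CPM of Tgfb3. Ltbp2 was lower in EMPA + PFD than in HFpEF (log2 fold change -5.76, SE 1.63, adjusted p = 0.011), with all 3 libraries below all 3. With Eif2s3y as a term the value was -3.21 (adjusted p = 0.173) and among libraries with its counts -3.30 (0.182), and over 15 alternatives the adjusted p ran from 8.77e-05 to 0.182. Against EMPA alone, EMPA + PFD gave -4.64 (adjusted p = 0.0745), which passed by DESeq2 alone (0.0168, range 0.0168 to 0.821) and was -0.89 without EMPA 2 (0.821). From control 5w to control 9w it gave -3.76 (adjusted p = 0.0597), passing by DESeq2 (0.0147) and without control 5w 1 (0.0213), in a range from 0.0147 to 0.177. The order of means was HFpEF, control 5w, EMPA, untreated, control 9w, PFD and EMPA + PFD, from 525 ± 502 to 9.67 ± 5.19 CPM (SD), and every neighbouring pair overlapped.

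**Figure D1:**
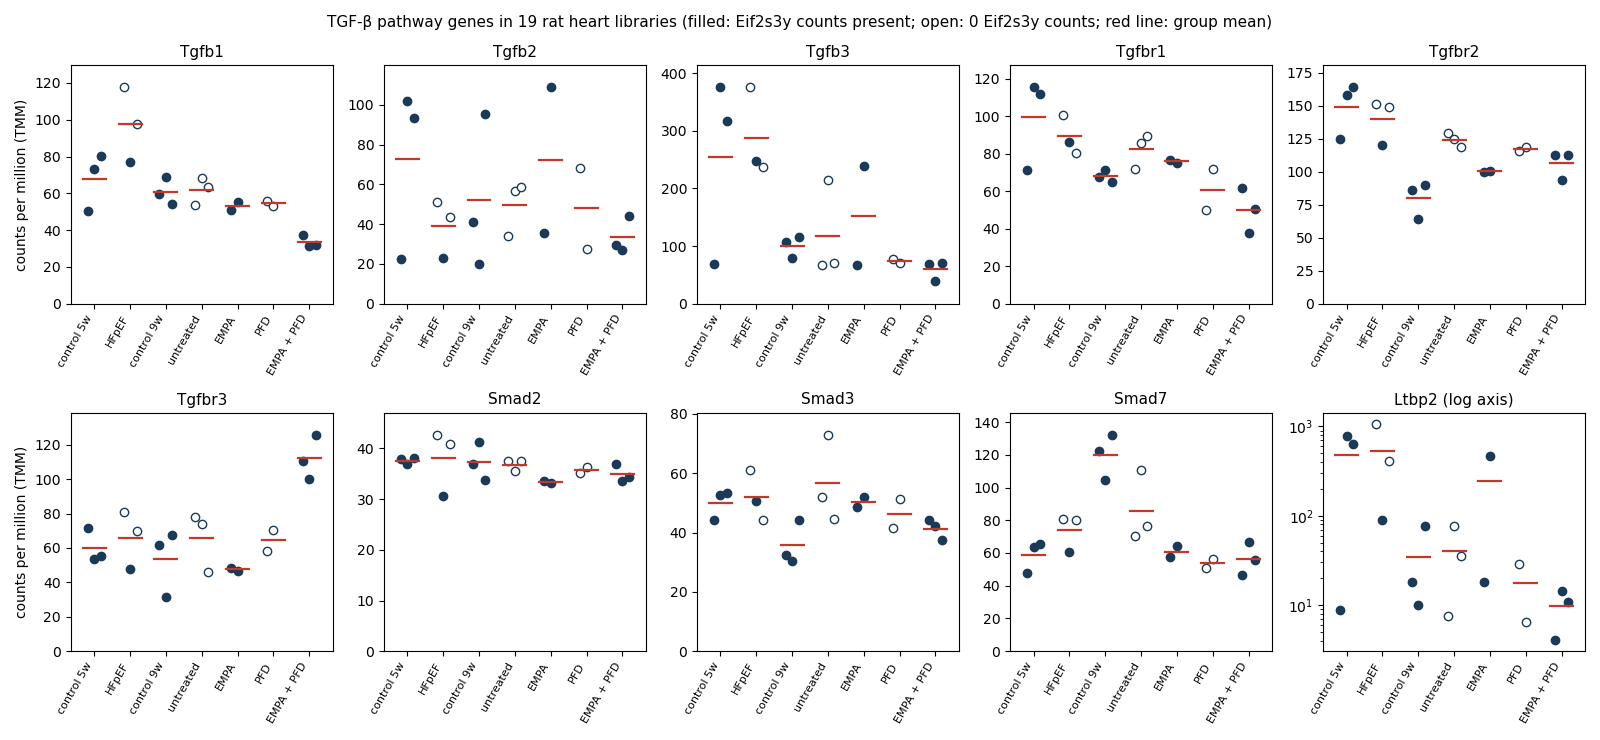
Level of each of the 10 genes (CPM, Ltbp2 on a log axis) in each of the 19 libraries, by group, with a red line at the group mean; filled points have Eif2s3y counts and open points have 0. The 3 EMPA + PFD libraries are the lowest of all for Tgfb1 (31.2 to 37.5 CPM) and the highest of all for Tgfbr3 (100.4 to 126 CPM), and Ltbp2 spreads from 8.76 to 772 CPM within control 5w.

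Tgfbr1 codes for the type I receptor kinase that phosphorylates SMAD2 and SMAD3. It stood at 71.8, 85.7 and 89.6 CPM in untreated and 61.5, 37.8 and 50.8 CPM in EMPA + PFD hearts, and the latter were all below the former. EMPA gave 76.4 and 75.3 CPM and PFD 49.7 and 71.8 CPM. Tgfbr1 fell with both drugs (log2 fold change -0.72, SE 0.20, adjusted p = 0.0349). The adjusted p rose over the threshold without untreated 2 (0.116), untreated 3 (0.0902), EMPA + PFD 2 (0.164) or EMPA + PFD 3 (0.0933), and also in these groups fitted alone (0.117), with the replicate number as a block (0.0551) or without the libraries with Bmp10 (0.161). Over 14 alternatives it ran from 0.00966 to 0.164.

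At week 5, Tgfbr1 stood at 71.5, 116 and 112 CPM in controls and 101, 86.5 and 80.3 CPM in HFpEF, and control 9w stood at 67.7, 71.4 and 64.8 CPM. Control 9w lay just under control 5w, whose lowest library (control 5w 1) exceeded the highest control 9w library by less than 0.1 CPM. It was lower at week 9 than at week 5 in controls (log2 fold change -0.55, SE 0.20, adjusted p = 0.0432). This passed in 5 of 16 alternatives (adjusted p 0.00881 to 0.286) and failed without control 5w 2 (0.16), control 5w 3 (0.14), control 9w 1 (0.101), control 9w 2 (0.085) or control 9w 3 (0.101). It also failed with upper quartile normalization (0.0506), with no filter beyond 1 count (0.0501), in these groups fitted alone (0.0717), with the replicate number as a block (0.0661), among libraries with Eif2s3y counts (0.0624) or without the libraries with Bmp10 (0.286). EMPA + PFD was also below HFpEF (log2 fold change -0.84, SE 0.20, adjusted p = 0.00449), which passed in 14 of 15 alternatives. With Eif2s3y as a term the value was -0.79 and did not pass (adjusted p = 0.0529, range 0.000515 to 0.0529). Against EMPA, EMPA + PFD gave -0.60 (adjusted p = 0.0884), and -0.76 without EMPA + PFD 1 (adjusted p = 0.0477, range 0.0477 to 0.28). The means ran from control 5w (99.6 ± 24.4 CPM, SD) through HFpEF, untreated, EMPA, control 9w and PFD to EMPA + PFD (50.0 ± 11.9), and of these neighbours EMPA and control 9w alone did not overlap.

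Tgfbr2 codes for the type II receptor, which binds the ligand and activates the type I receptor. It stood at 125, 158 and 164 CPM in control 5w and at 85.8, 64.2 and 89.8 CPM in control 9w, whose 3 libraries were the lowest of all 19. HFpEF gave 151, 120.0 and 149 CPM and untreated 129, 125 and 118 CPM, so the diseased hearts at both weeks lay in or near the range of the week-5 controls. Tgfbr2 was lower in control 9w than in control 5w (log2 fold change -0.90, SE 0.14, adjusted p = 0.000608), and this passed in 16 of 16 alternatives.

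Untreated hearts had more Tgfbr2 than control 9w (log2 fold change 0.63, SE 0.14, adjusted p = 0.0381), with 3 of 3 libraries above 3 of 3. The call was lost without control 9w 1 (0.11), control 9w 2 (0.163), untreated 1 (0.152) or untreated 3 (0.0931), and also in these groups fitted alone (0.122) or with the replicate number as a block (0.0511). Over 14 alternatives the adjusted p ran from 0.00125 to 0.163, and Eif2s3y separates these groups. The disease difference at week 9 exceeded that at week 5, where HFpEF and control overlapped (-0.09, 95% interval -0.39 to 0.21), by 0.72 (SE 0.20, adjusted p = 0.0219). That difference did not pass without control 5w 3 (0.054), HFpEF 2 (0.0519), control 9w 2 (0.0552) or untreated 1 (0.0555), nor in these groups fitted alone (0.0511), and its adjusted p stayed between 0.00359 and 0.0555 over 20 alternatives.

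No comparison of a drug with untreated passed for Tgfbr2. EMPA gave 100.1 and 101 CPM, PFD 116 and 119 CPM and EMPA + PFD 112, 93.9 and 113 CPM, and EMPA + PFD against untreated gave -0.22 (95% interval -0.52 to 0.08) and did not pass. EMPA + PFD was lower than week-5 HFpEF (log2 fold change -0.40, SE 0.14, adjusted p = 0.0334), a call lost without HFpEF 1 (0.11), HFpEF 3 (0.0904), EMPA + PFD 2 (0.141) or EMPA + PFD 3 (0.0527). With Eif2s3y as a term the value was -0.17 (adjusted p = 0.513), among libraries with its counts -0.26 (0.385), and in these groups fitted alone the adjusted p was 0.0741, in a range from 0.0146 to 0.513 over 15 alternatives. The means ran from control 5w (149 ± 21.3 CPM, SD) through HFpEF, untreated, PFD, EMPA + PFD and EMPA to control 9w (79.9 ± 13.8). Neighbours did not overlap between PFD and EMPA + PFD and between EMPA and control 9w.

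Tgfbr3 codes for betaglycan, a coreceptor without a kinase that presents ligands to the type II receptor. EMPA + PFD gave 110.4, 100.4 and 126 CPM against 77.8, 73.9 and 46.1 CPM in untreated, 48.3 and 46.8 CPM in EMPA and 58.3 and 70.6 CPM in PFD. The 3 EMPA + PFD libraries were the highest of all 19. Control 5w gave 71.9, 53.4 and 55.4 CPM, HFpEF 80.8, 47.6 and 69.6 CPM and control 9w 62.0, 31.7 and 67.6 CPM. Tgfbr3 was higher in EMPA + PFD than in EMPA (log2 fold change 1.24, SE 0.31, adjusted p = 0.0276), more than 2-fold. It did not pass without EMPA 1 (0.118), EMPA 2 (0.163), EMPA + PFD 2 (0.0654) or EMPA + PFD 3 (0.078), fits in which EMPA may have 1 library that is assumed to vary like the other groups, in a range from 0.00177 to 0.163 over 14 alternatives. Against untreated the value was 0.77 (SE 0.26) and did not pass (adjusted p = 0.0667), though it did by DESeq2 (0.0301, range 0.0301 to 0.17). Against HFpEF it was 0.77 (SE 0.26, adjusted p = 0.0282), which did not pass without HFpEF 2 (0.107) or EMPA + PFD 3 (0.0778), nor with upper quartile normalization (0.0568), in a range from 0.012 to 0.107. The order of means was EMPA + PFD (112 ± 12.9 CPM, SD), HFpEF, untreated, PFD, control 5w, control 9w and EMPA (47.5 ± 1.11), and only EMPA + PFD was apart from its neighbour.

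Read across all libraries, 1 of the 10 genes (Tgfb1) had all 3 EMPA + PFD libraries below the 16 others, as had 3.32% of the 12388 tested genes. Likewise 1 of 10 (Tgfbr3) had them above the 16 others, as had 3.73% of tested genes, and 1 of 10 (Tgfbr2) had the 3 control 9w libraries below the 16 others, as had 1.04%. With 1 gene in 10 the smallest count above 0, these shares describe single genes and say nothing of the pathway as a whole.

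Smad2 and Smad3 code for the receptor-activated transducers. Smad2 hardly varied: its lowest level was 30.6 CPM (HFpEF 2), its median 36.8 CPM and its highest 42.8 CPM (HFpEF 1), so both extremes lay in 1 group. Its log2 CPM had an SD of 0.119 over the 19 libraries, against a median of 0.4 for all tested genes, and only 2.03% of genes had a lower one. Smad2 did not pass in any of the 11 comparisons, and the order of its group means, HFpEF, control 5w, control 9w, untreated, PFD, EMPA + PFD, EMPA, overlapped between all neighbours.

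Smad3 stood at 32.6, 30.2 and 44.3 CPM in control 9w and 52.0, 73.1 and 44.7 CPM in untreated, which lay wholly above it by a margin of under 1 CPM at the nearest libraries. Untreated 2 was the highest library of all. The difference was 0.66 (SE 0.19) and did not pass (adjusted p = 0.0764), and it passed by DESeq2 (0.0256) and without control 9w 3 (0.0462), in a range from 0.0256 to 0.291 over 14 alternatives. Week 5 gave 44.2, 52.7 and 53.3 CPM in control and 61.0, 50.6 and 44.2 CPM in HFpEF, and control 9w against control 5w gave -0.49 (adjusted p = 0.0552). That passed by DESeq2 (0.0483), among libraries with Eif2s3y counts (0.0335), without the libraries with Bmp10 (0.026) and without control 9w 3 (0.0189), in a range from 0.0189 to 0.199. EMPA gave 48.7 and 52.0 CPM, PFD 41.4 and 51.3 CPM and EMPA + PFD 44.3, 42.1 and 37.4 CPM, the last all below untreated (-0.46, adjusted p = 0.107, not passed). Without untreated 2 that difference was -0.23. The means ran from untreated (56.6 ± 14.7 CPM, SD) through HFpEF, EMPA, control 5w, PFD and EMPA + PFD to control 9w (35.7 ± 7.51), with overlap between all neighbours.

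Smad7 codes for the inhibitory SMAD that is itself induced by the pathway. It stood at 47.9, 63.5 and 65.5 CPM in control 5w and 122, 104 and 132 CPM in control 9w, with every week-9 control above every week-5 control. This was the only member that changed at least 2-fold between the control groups and passed (log2 fold change 1.02, SE 0.19, adjusted p = 0.00145), and its adjusted p passed in 16 of 16 alternatives. The change was under 2-fold without control 5w 1 (0.90), control 9w 3 (0.94) or the libraries with Bmp10 (0.82). HFpEF gave 80.8, 60.9 and 80.4 CPM and untreated 70.1, 111 and 76.3 CPM, and the highest untreated library (untreated 2, the one with Bmp10) reached into the control 9w range. Untreated against control 9w gave -0.48 (adjusted p = 0.187), and -0.71 without untreated 2 (adjusted p = 0.0315, range 0.0315 to 0.533). The disease difference at week 9 minus that at week 5 was -0.81 (SE 0.27, adjusted p = 0.0451). It did not pass without control 5w 1 (0.0952), control 5w 2 (0.0565), control 5w 3 (0.0515), HFpEF 1 (0.0841) or HFpEF 3 (0.0842). Nor did it pass without control 9w 1 (0.0848), control 9w 2 (0.0522), control 9w 3 (0.0834), untreated 1 (0.119) or untreated 3 (0.103). It also failed with upper quartile normalization (0.0552), with no filter beyond 1 count (0.0556), in these groups fitted alone (0.0832) or without the libraries with Bmp10 (0.0561), in a range from 0.00639 to 0.119 over 20 alternatives.

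EMPA gave 57.4 and 64.1 CPM of Smad7, PFD 50.9 and 56.4 CPM and EMPA + PFD 46.5, 66.9 and 55.7 CPM, all below the lowest untreated library. With both drugs it fell against untreated by the narrowest margin of any member's call (log2 fold change -0.61, SE 0.19, adjusted p = 0.0499). Left out singly, untreated 2 brought this to -0.38 (adjusted p = 0.253), and the adjusted p was 0.0714 without untreated 3, 0.131 without EMPA + PFD 1, 0.0936 without EMPA + PFD 2 and 0.132 without EMPA + PFD 3. The call was also lost with relative log expression normalization (0.0537), in these groups fitted alone (0.144), with the replicate number as a block (0.0583) or without the libraries with Bmp10 (0.281). Over 14 alternatives it ran from 0.0253 to 0.281. PFD alone gave -0.68 (95% interval -1.13 to -0.22) and EMPA alone -0.50 (-0.95 to -0.04), neither of which passed after adjustment. Without untreated 2 they gave -0.45 and -0.27. The means ran in the order control 9w (119.6 ± 14.2 CPM, SD), untreated (85.7 ± 21.8), HFpEF, EMPA, control 5w, EMPA + PFD and PFD (53.6 ± 3.85), with overlap between all neighbours.

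Taken by comparison, the first asks what HFpEF changed at week 5. Of the 10 genes 1 rose (Tgfb1) and 0 fell by edgeR, where 9.83% of all tested genes rose and 10.2% fell, so the share is that of any gene. At an unadjusted threshold of 0.05 the count was 1 in all, and by DESeq2 1, where 4436 and 3224 of the 12388 genes passed. Over all genes 2477 calls became 652 in these groups fitted alone, 1340 with Eif2s3y as a term and 1550 among libraries with its counts, and the count of members was 0 in each. The median log2 fold change of the members was 0.093 against 0.022 for all genes.

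Control hearts at week 9 against week 5 show how far the pathway moved without disease. Here 1 gene was higher (Smad7) and 2 were lower (Tgfbr1, Tgfbr2), where 17.3% of tested genes were higher and 17.2% lower, again close to the background. DESeq2 called 6, and 6 passed without adjustment, where 4784 and 5626 of the 12388 genes did. The member median was -0.48 against -0.038 for all genes. Leaving out control 5w 1 raised the count of members to 5, with 4256 genes passing in all against 4277 before. The number of all genes that passed was 2957 without control 5w 2 and 3063 without control 5w 3. It was 3002 without control 9w 1, 2597 without control 9w 2 and 3958 without control 9w 3. RT1-CE16 counts separate the 2 control groups, so that this split and week cannot be told apart.

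Untreated disease against control at week 9 gave 1 higher gene (Tgfbr2) and 0 lower, where 0.589% of tested genes were higher and 1.19% lower. By DESeq2 the count was 2 and without adjustment 3, where 824 and 2259 of the 12388 genes passed, and the member median was 0.216 against 0.005. The count was 0 without control 9w 1, control 9w 2, untreated 1 or untreated 3, and 2 without control 9w 3 or untreated 2. The number of all genes that passed moved as well, from 220 to 25, 8, 16, 34, 266 and 1009 in the same order. Untreated at week 9 against HFpEF at week 5 gave 0 higher and 0 lower by edgeR, where 0.137% of genes were higher and 0.0888% lower. Without adjustment 3 passed and by DESeq2 1, where 2817 and 965 of the 12388 genes did. Without HFpEF 2 the count was 1 and without untreated 2 it was 2, while over all genes it went from 28 to 400 and 1782. The test of the disease difference at week 9 minus that at week 5 gave 1 gene with a positive value (Tgfbr2) and 1 with a negative value (Smad7), where 9.76% and 10.2% of genes did. DESeq2 gave 2, and 3203 of all genes.

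PFD alone is the comparison that bears most directly on the choice of these genes. Against untreated, 0 of 10 were higher and 0 lower by edgeR, where 0.00807% of tested genes (1 gene) were higher and 0% lower. At the unadjusted threshold 1 passed (Smad7), and by DESeq2 0, where 646 and 5 of the 12388 genes did. All 10 fitted values were negative, from -1.19 (Ltbp2) to -0.03 (Tgfbr3), with a median of -0.237 against -0.017 for all genes. The Ltbp2 value was -0.27 without untreated 2, -0.50 without PFD 2 and -2.64 without PFD 1. All 10 share the same 2 PFD and 3 untreated libraries, so the common sign is not 10 separate observations. The sign of Tgfb2, Tgfb3 and Tgfbr3 turned when untreated 2 was left out (0.05, 0.10 and 0.06). Tgfb2 also turned without untreated 3 (0.07) or PFD 2 (0.45), and Tgfbr3 without untreated 1 (0.10) or PFD 1 (0.09). For the ligand Tgfb1 the interval ran from -0.61 to 0.24, and for Tgfbr1 from -0.92 to 0.04. EMPA + PFD was not tested against PFD.

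EMPA alone against untreated gave 0 higher and 0 lower of 10 by edgeR, where 0.0161% of genes were higher and 0.0242% lower. At the unadjusted threshold 1 passed (Smad7), and by DESeq2 0, where 1069 and 95 of the 12388 genes did. The member median was -0.155 against 0.007. Eif2s3y and RT1-CE16 counts both separate EMPA from untreated, so these splits and the drug cannot be told apart here. The 3 positive values, Ltbp2 (2.59), Tgfb2 (0.54) and Tgfb3 (0.38), rested on EMPA 2, without which they were -1.16, -0.48 and -0.82, and Smad3 turned positive (0.06) without untreated 2.

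Both drugs against untreated gave 0 higher and 3 lower (Tgfb1, Tgfbr1, Smad7), where 6.6% of tested genes were higher and 5.52% lower. The member median was -0.589 against -0.032 for all genes. Without adjustment 5 passed and by DESeq2 4, where 4056 and 2532 of the 12388 genes did. The count was 3 without untreated 1, 2 without EMPA + PFD 1, 1 without untreated 3 and 0 without untreated 2, EMPA + PFD 2 or EMPA + PFD 3. The count was also 0 in these groups fitted alone and without the libraries with Bmp10, and 1 with the replicate number as a block. Without untreated 3, untreated 2, EMPA + PFD 2 or EMPA + PFD 3 the loss was not that of the members alone, since over all genes 1501 calls became 417, 140, 110 and 313. Without EMPA + PFD 1, where the members went from 3 to 2, calls over all genes rose to 1906, and without untreated 1 to 2263. These calls became 5 in these groups fitted alone, 67 without the libraries with Bmp10 and 1095 with the block, so the background percentages too rest on the fit to all 19 libraries. The comparisons of EMPA, PFD and EMPA + PFD with untreated share the untreated libraries. PFD and untreated libraries all have 0 Eif2s3y counts, whereas EMPA and EMPA + PFD libraries all have counts. In the EMPA and EMPA + PFD values this split and the drugs cannot be told apart, so they are not like the PFD values. For Tgfb1 the values side by side were -0.22, -0.19 and -0.89, for Tgfbr1 -0.12, -0.44 and -0.72, and for Smad7 -0.50, -0.68 and -0.61. Without untreated 2 they were -0.14, -0.11 and -0.81 for Tgfb1, -0.09, -0.41 and -0.69 for Tgfbr1, and -0.27, -0.45 and -0.38 for Smad7. Tgfbr1 with PFD was -0.20 without PFD 1 and -0.74 without PFD 2.

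Whether the drugs together did more or less than the sum of each was tested as EMPA + PFD minus EMPA minus PFD plus untreated. By edgeR 0 of 10 had a positive value that passed and 0 a negative one, where 0.00807% and 0% of genes did, and 1 passed without adjustment (Tgfbr3) and 0 by DESeq2, where 1130 and 54 of the 12388 genes did. Tgfbr3 had 1.27 (95% interval 0.37 to 2.18, adjusted p = 0.425) and Tgfb1 -0.48 (-1.08 to 0.12). The member median was -0.08 against -0.015.

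EMPA + PFD against EMPA compares groups that differ in PFD. It gave 1 higher (Tgfbr3) and 1 lower gene (Tgfb1), where 5.3% of genes were higher and 4.42% lower. Tgfb1 stood at 50.7 and 55.4 CPM with EMPA and 37.5, 31.2 and 32.0 CPM with both (log2 fold change -0.66, SE 0.20, adjusted p = 0.0492), all of the latter below the former. It did not pass without EMPA 1 (0.132), EMPA 2 (0.232), EMPA + PFD 2 (0.15) or EMPA + PFD 3 (0.129), nor with relative log expression normalization (0.0515), with no filter beyond 1 count (0.0528) or with the replicate number as a block (0.0882), in a range from 0.0266 to 0.232 over 14 alternatives. The count over all members was 0 without any 1 of these 4 libraries, and over all genes it went from 1203 to 87, 7, 123 and 235 in the same order. Without adjustment 4 passed and by DESeq2 3, where 3794 and 2118 of the 12388 genes did, and the member median was -0.444 against -0.048. These groups share the Eif2s3y state, but differ in RT1-CE16, with at most 3 counts in EMPA, so that this split and PFD cannot be told apart.

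EMPA + PFD at week 9 against HFpEF at week 5, the state from which treatment began, gave 1 higher (Tgfbr3) and 5 lower genes (Tgfb1, Tgfb3, Tgfbr1, Tgfbr2, Ltbp2), where 22.3% of genes were higher and 24.5% lower. With 10 genes, 5 against a background of 24.5% is a description of these genes alone. DESeq2 called 6 and 6 passed without adjustment, where 6220 and 6804 of the 12388 genes did, and the member median was -0.394 against -0.086. The count fell to 2 with Eif2s3y as a term and to 3 among libraries with its counts, and over all genes it went from 5796 to 2989 and 3421. Week, RT1-CE16 counts and treatment differ together here and cannot be told apart, and HFpEF 1 and 3 differ from EMPA + PFD in Eif2s3y counts as well.

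**Figure D2:**
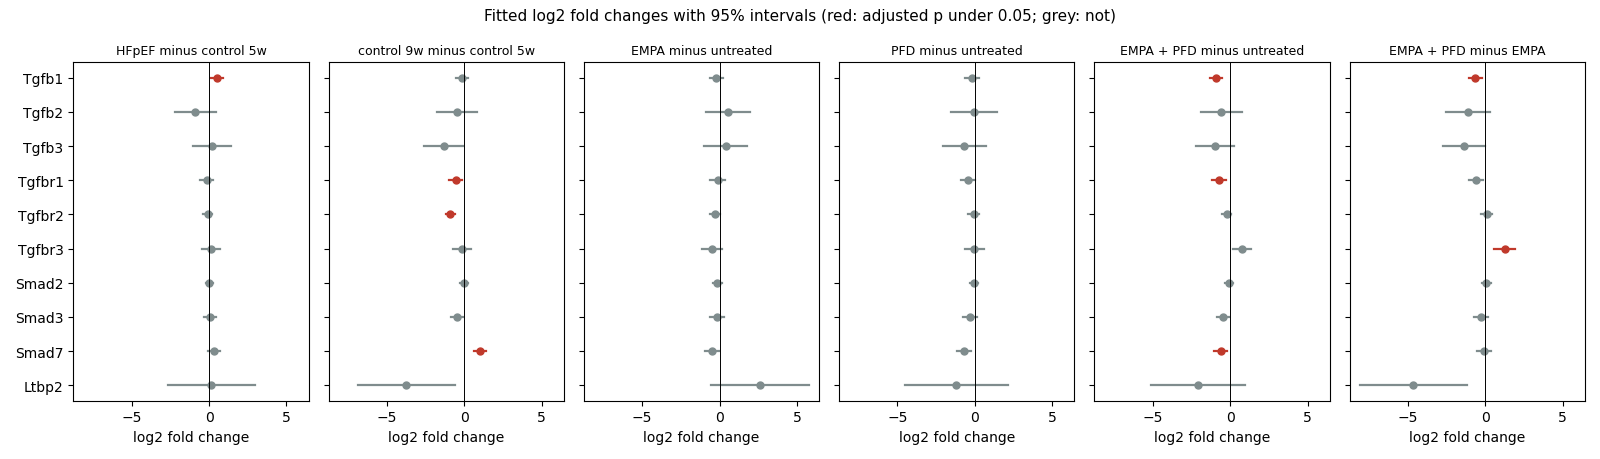
Log2 fold change of each of the 10 genes with its 95% interval in 6 comparisons: HFpEF against control 5w, control 9w against control 5w, EMPA, PFD and EMPA + PFD against untreated, and EMPA + PFD against EMPA, with red for adjusted p under 0.05. With PFD alone all 10 points are negative and none passed, while with both drugs Tgfb1, Tgfbr1 and Smad7 passed as lower. Eif2s3y counts separate EMPA and EMPA + PFD from untreated, and do not separate PFD from untreated.

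The rest of the pathway was read from 5 lists of 85 tested genes in all: 18 of latency and activation (of 19 listed), 12 other ligands of the superfamily (of 14), 9 other receptors (of 11), 21 other SMADs and SMAD regulators (of 25) and 25 genes induced by TGF-β. With both drugs against untreated, 3 of the 85 were higher and 4 lower, at background percentages of 6.6% and 5.52%. The 2 receptors that fell were Eng (endoglin, an endothelial coreceptor) and Acvrl1 (ALK1, the type I receptor of endothelial cells). Eng stood at 673, 1059.7 and 686 CPM in untreated and 425, 314 and 313 CPM in EMPA + PFD (log2 fold change -1.20, SE 0.20, adjusted p = 0.00678), and it missed the threshold in these groups fitted alone (0.0996, range 4.94e-07 to 0.0996). Acvrl1 stood at 231, 289.8 and 264 CPM and 145, 128 and 126 CPM (log2 fold change -0.98, SE 0.18, adjusted p = 0.00883), and it missed the threshold without EMPA + PFD 2 (0.0548) and in these groups fitted alone (0.0871, range 1.9e-05 to 0.0871). For both, all treated libraries lay below all untreated ones. That was a condition for naming a list gene here, and 18.7% of all tested genes met it.

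Among SMAD regulators 3 of 21 rose with both drugs and 0 fell. Usp15, a deubiquitinase of receptors and SMADs, stood at 48.5, 35.4 and 41.8 CPM in untreated and 59.6, 73.0 and 68.6 CPM in EMPA + PFD (log2 fold change 0.68, SE 0.14, adjusted p = 0.0135), and it did not pass without untreated 2 (0.0662) or EMPA + PFD 2 (0.0651), nor in these groups fitted alone (0.104) or without the libraries with Bmp10 (0.0934), in a range from 0.000332 to 0.104. Nedd4l, a ubiquitin ligase of activated SMADs, gave 0.60 (adjusted p = 0.046), and Zfyve9, the SMAD anchor SARA, 0.45 (0.0326). Neither passed without untreated 2 (0.196 and 0.135), untreated 3 (0.0707 and 0.0863), EMPA + PFD 2 (0.171 and 0.118) or EMPA + PFD 3 (0.0897 and 0.108). They also failed with upper quartile normalization (0.0505 and 0.0558), with no filter beyond 1 count (0.0613 and 0.0563), in these groups fitted alone (0.12 and 0.148), with the replicate number as a block (0.0676 and 0.0501) or without the libraries with Bmp10 (0.201 and 0.161), in ranges from 0.0143 to 0.201 and 0.00588 to 0.161. Of the latency list 1 of 18 fell, Nrros, which holds latent TGF-β1 on macrophages and microglia (-0.63, adjusted p = 0.038), and of the other ligands 1 of 12, Bmp4 (-1.63, 0.0365). These did not pass without untreated 2 (0.15 and 0.177), untreated 3 (0.0684 and 0.0573), EMPA + PFD 2 (0.186 and 0.163) or EMPA + PFD 3 (0.0808 and 0.12), nor in these groups fitted alone (0.117 and 0.113), with the replicate number as a block (0.0521 and 0.0546) or without the libraries with Bmp10 (0.126 and 0.213), in ranges from 0.0165 to 0.186 and 0.00656 to 0.213.

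The 25 induced genes, which include the collagens Col1a1, Col1a2 and Col3a1, Ccn2 and Postn, had 0 higher and 0 lower with both drugs by edgeR, with 2 at the unadjusted threshold and 0 by DESeq2 (4056 and 2532 of all genes). Their median was -0.656 against -0.032 for all genes. With PFD alone 0 of the 85 pathway genes passed (9 without adjustment and 0 by DESeq2, against 646 and 5 of the 12388 genes), and the induced genes had a median of -0.388 against -0.017. With EMPA alone 0 of 85 passed (11 without adjustment and 2 by DESeq2, against 1069 and 95), and their median was 0.554 against 0.007. Col1a1 was high in 1 of the EMPA libraries: it stood at 316 and 2988 CPM in the EMPA libraries, 519.7 and 364 CPM in PFD, 329, 893 and 331 CPM in untreated and 411, 236 and 333 CPM in EMPA + PFD. For the sum-of-drugs test 0 of 85 passed (6 without adjustment and 0 by DESeq2, against 1130 and 54).

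EMPA + PFD against EMPA gave 2 higher, among them Zfyve9, and 5 lower of 85, against 5.3% and 4.42% of all genes. Zfyve9 stood at 44.6 and 39.6 CPM with EMPA and 56.9, 70.0 and 76.3 CPM with both (log2 fold change 0.69, SE 0.14, adjusted p = 0.0159), and it did not pass without EMPA 1 (0.0651), EMPA 2 (0.132), EMPA + PFD 2 (0.0553) or EMPA + PFD 3 (0.0505), in a range from 0.000256 to 0.132. Among the induced genes 2 of 25 were lower, Comp (a cartilage matrix protein) and Tagln (a smooth muscle protein). Comp stood at 4.39 and 223 CPM in EMPA and 1.66, 1.08 and 2.72 CPM in EMPA + PFD, and Tagln at 92.0 and 593 and 40.6, 80.9 and 73.8 CPM. Both rest on EMPA 2: the values of -5.94 and -2.40 became -1.25 (adjusted p = 0.731) and -0.50 (0.697) without it. They also failed without EMPA + PFD 1 (0.0601 and 0.0696), EMPA + PFD 2 (0.115 and 0.0925) or EMPA + PFD 3 (0.0914 and 0.0908), or with the replicate number as a block (0.0819 and 0.0707), and Tagln in these groups fitted alone (0.0715), in ranges from 0.000555 to 0.731 and 0.00414 to 0.697.

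In HFpEF at week 5, 8 of the 85 genes were higher and 4 lower, against 9.83% and 10.2% of all genes. Nrros stood at 33.3, 32.7 and 34.6 CPM in control 5w and 60.4, 72.9 and 50.6 CPM in HFpEF (log2 fold change 0.87, SE 0.18, adjusted p = 0.00635), and passed in 15 of 15 alternatives. Lrrc32 (GARP, which holds latent TGF-β on regulatory T cells and platelets) stood at 40.1, 50.3 and 52.9 and 149, 67.8 and 131 CPM (log2 fold change 1.28, SE 0.24, adjusted p = 0.00351), but among libraries with Eif2s3y counts gave 0.57. It failed in these groups fitted alone (0.0541), with Eif2s3y as a term (0.147) or among libraries with Eif2s3y counts (0.141) (range 9.12e-06 to 0.147). Eng stood at 383, 422 and 425 and 585, 814 and 769.6 CPM (log2 fold change 0.82, SE 0.20, adjusted p = 0.013) and Acvrl1 at 154, 159 and 157 and 216, 321 and 263 CPM (log2 fold change 0.77, SE 0.18, adjusted p = 0.0103). For both, all HFpEF libraries lay above all controls, which was a condition for naming them and held for 18.7% of all tested genes. Bmpr1a, a receptor on the same list, was lower in HFpEF. Crebbp, a coactivator of SMADs, rose (0.71, adjusted p = 0.00392) and Usp15 fell (-0.65, 0.00827). In these groups fitted alone Eng (0.0599), Acvrl1 (0.0644) and Usp15 (0.0654) did not pass, in ranges from 0.000403 to 0.0599, 0.000435 to 0.0644 and 0.000462 to 0.0654. Comp was at 1.51, 2.56 and 1.19 CPM in control 5w and 402, 3.30 and 29.4 CPM in HFpEF, with HFpEF 2 near the controls. Its value of 6.35 (adjusted p = 0.012) became 3.20 without HFpEF 1 (0.0631) and 0.96 among libraries with Eif2s3y counts (0.71). It also failed with Eif2s3y as a term (0.759) and in these groups fitted alone (0.0865, range 7.02e-06 to 0.759). The 25 induced genes had 2 higher and 1 lower, with a median of 0.246 against 0.022.

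Between the control groups, week 9 had 11 higher and 21 lower of 85, against 17.3% and 17.2% of all genes. The induced genes had 0 higher and 11 lower of 25, with a median of -1.17 against -0.038. Only 3 of the 25 had all control 9w libraries below all control 5w ones, and 3 had them above, as had 24.7% and 24.6% of all genes. Col1a1 stood at 496, 9897 and 7972 CPM in control 5w, so control 5w 1 was far below its group, and at 324, 205 and 402 CPM in control 9w (log2 fold change -4.30, SE 0.96, adjusted p = 0.00402). Without the libraries with Bmp10 it gave -4.90 (adjusted p = 0.0545, range 1.11e-06 to 0.0545). Fbn1 (fibrillin, the scaffold to which latent complexes attach) stood at 355, 1952 and 1591 and 124, 92.7 and 189.7 CPM (log2 fold change -3.26, SE 0.62, adjusted p = 0.0017). Smad6, the inhibitory SMAD of the BMP branch, moved like Smad7: it stood at 11.4, 10.7 and 14.5 CPM in control 5w and 67.4, 46.2 and 70.2 CPM in control 9w (log2 fold change 2.33, SE 0.33, adjusted p = 0.000313), passing in 16 of 16 alternatives. Among week-9 untreated libraries it was at 27.7, 80.9 and 29.6 CPM, highest again in untreated 2. Eng (1.21, adjusted p = 0.00069) and Acvrl1 (0.90, 0.00197) were higher in control 9w, and Usp15 lower (-0.98, 0.000355), each in 16 of 16 alternatives. Bmpr1a, on the same list of receptors as Eng and Acvrl1, was lower. Mstn (3.63, 0.00577) did not pass without the libraries with Bmp10 (0.143, range 0.000113 to 0.143).

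Untreated against control 9w gave 0 of 85 by edgeR, where 0.589% of all genes were higher and 1.19% lower (9 without adjustment and 3 by DESeq2, against 2259 and 824 of the 12388 genes). Untreated against HFpEF also gave 0 of 85, where 0.137% were higher and 0.0888% lower (21 without adjustment and 10 by DESeq2, against 2817 and 965), and the induced genes had a median of -1.50 against -0.013. EMPA + PFD against HFpEF gave 8 higher and 33 lower of 85, against 22.3% and 24.5% of all genes, and 18 of the 25 induced genes were lower and 0 higher (median -1.84 against -0.086). Cilp, a matrix protein of injured myocardium, stood at 361, 80.4 and 219.6 CPM in HFpEF and 6.03, 8.13 and 10.6 CPM in EMPA + PFD (log2 fold change -4.74, adjusted p = 0.00374). Cilp had all 3 libraries below all 3, which was a condition for naming it and held for 27.7% of all tested genes. Among libraries with Eif2s3y counts it gave -3.37 (adjusted p = 0.0758) and with the term -3.28 (0.0615, range 1.21e-05 to 0.0758). Eng (-1.04, 0.00127), Acvrl1 (-1.003, 0.000865) and Bmp4 (-1.98, 0.00379) were lower and Nedd4l (1.07, 0.000781) higher, each passing in 15 of 15 alternatives. The receptor Bmpr1a was higher in EMPA + PFD.

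Cell type markers moved in some of the same comparisons, and their part in the results above was not tested. With both drugs, the 6 endothelial markers (6 of 6 in the files, led by Vwf) summed to 1781, 1571 and 1643 CPM against 2569, 3006 and 2796 CPM in untreated, and 1 of 6 passed (Egfl7, lower). The cardiomyocyte sum was 39849, 67936 and 56492 CPM against 46144, 15065 and 36656 CPM, and 1 of 7 passed (Ryr2, higher). The 8 fibroblast markers, led by Gsn, summed to 9445, 3130 and 6306 CPM against 7658, 11872 and 6182 CPM. Macrophage markers (7 of 7, led by Csf1r) summed to between 170 and 303 CPM with both drugs and between 231 and 515 CPM in untreated. Of the 4 atrial genes 2 were lower (Myl4, Sln), with untreated 2 the library that held most of them, and of the red cell genes Slc4a1 was higher.

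Between the control groups, 5 of 6 endothelial markers were higher at week 9 (sums of 2823 to 3349 CPM against 1280 to 1532 CPM), while 4 of 8 fibroblast and 4 of 7 macrophage markers were lower. Cd4 and Pdgfrb were lower there too, and Sln, Myh11 and Wt1 higher. In HFpEF at week 5 the endothelial sum was 1470 to 3016 CPM and 3 of 6 were higher, as were 2 of 6 tested lymphocyte markers (Cd3d, Cd8a) and 2 of 2 mesothelial ones (Msln, Wt1), while Ryr2 was lower. The macrophage sum there was 1300.4 CPM in HFpEF 1, 387 CPM in HFpEF 2 and 824 CPM in HFpEF 3, the same order as Tgfb1. It was 429, 743 and 644 CPM in control 5w, so HFpEF 2 lay below all controls, and 0 of 7 macrophage markers passed. The cardiomyocyte sum was 6943.5, 16381.6 and 21654.5 CPM in HFpEF and 50162.7, 18706.5 and 21613.5 CPM in control 5w. EMPA + PFD against HFpEF had 6 of 7 cardiomyocyte markers higher, and 6 of 7 macrophage, 4 of 8 fibroblast and 6 of 6 tested lymphocyte markers (led by Cd4, 17.95 to 178 CPM summed over all libraries) lower. Also lower in it were 2 of 6 endothelial markers (Egfl7, Tie1), Pdgfrb, Msln and 2 of 4 tested platelet and red cell markers (Ahsp, Alas2). EMPA + PFD against EMPA had the smooth muscle marker Myh11 and the red cell markers Ahsp and Alas2 lower. In it the cardiomyocyte sum was 39849, 67936 and 56492 CPM with both drugs and 29473.5 and 21329 CPM with EMPA. The endothelial sum was 1781, 1571 and 1643 CPM with both and 2577.5 and 2002 CPM with EMPA, and 0 of 7 and 0 of 6 markers passed. Untreated against control 9w had Cd3e higher and Alas2 lower, and untreated against HFpEF had Alas2 and Slc4a1 lower. Platelet and red cell genes (5 of 6 in the files, led by Pf4) summed to at most 154 CPM and mesothelial genes (2 of 4, led by Wt1) to at most 194 CPM in any library.

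Among themselves the members differed widely in how much they varied over the 19 libraries. The SD of log2 CPM was 2.61 for Ltbp2 (99.8% of tested genes were lower), 1.025 for Tgfb3 (93.3%), 0.779 for Tgfb2 (83.5%), 0.488 for Tgfb1 (60.3%) and 0.483 for Tgfbr3 (59.7%). It was 0.445 for Smad7 (55.6%), 0.397 for Tgfbr1 (49.6%), 0.333 for Tgfbr2 (40.7%) and 0.293 for Smad3 (34.3%), with Smad2 at the bottom. Libraries of 1 group are counted here like libraries of different groups.

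The genes whose levels were most like each member's, of 11737 searched over the 19 libraries, are given with their Pearson r as a description, since libraries share groups. For Tgfb1 they were Lasp1 (0.97), Cap1 (0.963) and Dnase2 (0.958), for Tgfb2 Prnp (0.854), Xkr5 (0.814) and Pi15 (0.803), and for Tgfb3 C1qtnf5 (0.977), Aebp1 (0.973) and Kctd15 (0.972). For Ltbp2 they were Ptprv (0.966), Cilp (0.966) and Sfrp4 (0.964), of which Cilp is also on the list of induced genes, as is Bhlhe40, named for Smad2. For the receptors they were Cyth3 (0.943), Cacnb3 (0.937) and Pheta2 (0.936) for Tgfbr1, Thbs2 (0.922), Cd4 (0.922) and Sirpa (0.909) for Tgfbr2, and Angpt1 (0.846), Tmtc4 (0.804) and Epdr1 (0.803) for Tgfbr3. Cd4 stands among the lymphocyte markers. Smad2 was most like Ddx59 (0.824), Cd3eap (0.749) and Bhlhe40 (0.70), Smad3 like Egr3 (0.87), Map3k14 (0.851) and Zfp316 (0.828), and Smad7 like Atoh8 (0.901), Zyx (0.878) and Gprc5a (0.869). By Spearman's rho, 11 of these 30 genes were again among the 3 most like.

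Promoter windows of 300 bases, placed at a transcript start, were found in RefSeq, build GRCr8, for 10 of 10 members in 11 windows. The SMAD palindrome GTCTAGAC was in 0 of the 11 windows and in 0.197% of all 33469 rat promoters, and GGGCGG, the core of a GC box, on either strand (CCGCCC) in those of 7 members and in 33.1% of all promoters. The 3 ligand genes were the ones without GGGCGG. Those of Tgfb3 and Ltbp2 are shown because these were the members that moved most alike over the libraries (r = 0.92, the highest of 45 pairs), and both lie on the minus strand of chromosome 6, at chr6:111456897-111457196 and chr6:110257249-110257548. Both windows lie inside the outer bounds that RefSeq gives these genes. Capitals mark GGGCGG, and a match is a description of the letters and not of a bound site.
Tgfb3: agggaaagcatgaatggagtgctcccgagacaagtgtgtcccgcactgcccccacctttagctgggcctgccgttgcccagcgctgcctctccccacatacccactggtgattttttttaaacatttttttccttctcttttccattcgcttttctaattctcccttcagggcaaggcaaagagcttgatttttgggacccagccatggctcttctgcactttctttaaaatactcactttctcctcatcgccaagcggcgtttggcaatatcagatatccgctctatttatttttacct
Ltbp2: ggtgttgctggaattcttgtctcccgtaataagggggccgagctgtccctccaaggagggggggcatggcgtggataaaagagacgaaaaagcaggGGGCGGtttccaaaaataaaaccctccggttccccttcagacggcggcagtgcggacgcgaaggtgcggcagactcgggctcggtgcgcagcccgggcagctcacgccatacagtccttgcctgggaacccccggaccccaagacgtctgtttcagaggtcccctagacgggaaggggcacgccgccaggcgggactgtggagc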

How the data were processed

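RNA of 19 rat hearts in 7 groups was sequenced. The authors trimmed reads with Trim Galore, checked them with FastQC, aligned them to rn6 with HISAT2 and made the deposited raw counts per gene symbol with HTSeq (versions not given). The per-library counts were used, and the table of the whole series was not. In R 4.3.3, edgeR 4.0.16 kept genes by filterByExpr (minimum count 10), normalized by TMM and fitted 1 quasi-likelihood model of 7 group means to all 19 libraries (biological coefficient of variation 0.257), without covariates. Contrasts (9 between groups and 2 differences of differences) were tested by the quasi-likelihood F test, two-sided, with Benjamini-Hochberg adjustment over 12388 genes in each comparison. A gene passed at adjusted p under 0.05, and intervals are 95%. CPM are TMM-normalized, and SDs and likeness use log2 CPM with a prior count of 2. The members and all lists (latency and activation, other superfamily ligands, other superfamily receptors, other SMADs and SMAD regulators, induced target genes, and markers of cardiomyocytes, atrium, fibroblasts, endothelium, smooth muscle and pericytes, macrophages, lymphocytes, platelets and red cells, adipocytes, and mesothelium and epicardium) were chosen with earlier results of these data known. Symbols absent from the files, also under synonyms, were Itgav, Ski, Skil, Ep300, Ttn, Itga2b, Upk3b and Lrrn4. The genes that could be named were all members, up to 4 of each pathway list per comparison with the largest change among those that passed without overlap of libraries (for the differences of differences, those that passed), and the 3 genes most like each member by Pearson r with a mean of at least 1 CPM. Marker genes that passed and RT1-CE16 fall outside this rule and were named after their values were seen. Alternatives were upper quartile and relative log expression normalization, 2 other filters, a 2-fold minimum, DESeq2 1.42.0, only the groups compared, the replicate number as a block (limma 3.58.1), Eif2s3y as a term, only libraries with or without it, leaving out each library, and, chosen after seeing the data, leaving out the 3 libraries with over 30 CPM of Bmp10. The steps were tested on simulated data. Ranges of adjusted p are over these alternatives, without the Eif2s3y term where it separates the groups compared or repeats leaving out HFpEF 2.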

Additional observations from a re-analysis of the deposited data

Results flagged for a closer look

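In 13 pathway genes the difference between diseased and control hearts was not the same at both weeks by the test of the difference itself (untreated minus control 9w, less HFpEF minus control 5w, 3 libraries in each group, log2 scale, edgeR). These were 2 of 10 members and 11 of the 85 other pathway genes, and of all tested genes 9.76% passed with a positive and 10.2% with a negative value, so the share is no larger than that of all genes. Among the members these were Tgfbr2 (0.72) and Smad7 (-0.81). In the other lists they were Lrrc32 (-1.59), Nrros (-0.94), Bmpr1a (1.16), Eng (-1.05), Acvrl1 (-0.93), Smad1 (-0.99), Crebbp (-0.99), Usp15 (0.93), Comp (-6.24), Sphk1 (-2.12) and Klf10 (-1.28). At week 9 all 3 untreated libraries had 0 counts of Eif2s3y and all 3 controls had counts, and at week 5 the libraries with 0 counts were HFpEF 1 and HFpEF 3. Among cell type markers the endothelial Egfl7 and Pecam1, the red cell Ahsp and Alas2 and the mesothelial Msln and Wt1 also passed with negative values and Ryr2 and Rgs5 with positive ones, and their part in these values was not tested.

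The background percentages of this test moved as well. Over all genes 2473 calls became 1321 without untreated 1, 1469 without control 9w 2, 1569 in these groups fitted alone and 3696 without untreated 2. Lrrc32, Smad1, Crebbp, Usp15 and Klf10 passed in 20 of 20 alternatives. Nrros did not pass without control 9w 2 (adjusted p = 0.0546, range 0.00432 to 0.0546), Eng without untreated 1 (0.053, range 0.0012 to 0.053) and Acvrl1 without control 9w 2 (0.0535) or untreated 1 (0.0554), nor in these groups fitted alone (0.0617, range 0.00262 to 0.0617). Bmpr1a did not pass without control 5w 2 (0.0724), control 5w 3 (0.0679), HFpEF 2 (0.0849), control 9w 1 (0.0841), control 9w 2 (0.0936), untreated 1 (0.108) or untreated 3 (0.0522), nor in these groups fitted alone (0.0544), in a range from 0.0111 to 0.108. Comp passed in 5 of 19 alternatives (range 0.00257 to 0.232) and failed without any 1 of the 12 libraries but HFpEF 2 and HFpEF 3, with -3.09 without HFpEF 1 (0.177), and with no filter beyond 1 count (0.0528), in these groups fitted alone (0.0589), with the replicate number as a block (0.0938) or without the libraries with Bmp10 (0.232). Sphk1 passed in 8 of 20 (range 0.0174 to 0.123) and failed without any 1 of the 12 but control 5w 3, HFpEF 2 and control 9w 3, and with no filter beyond 1 count (0.052), in these groups fitted alone (0.0636) or without the libraries with Bmp10 (0.0675).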

How the results depend on the processing

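Counts of members that passed changed by more than 1.5 times under some settings, and the cause was not tested. HFpEF against control 5w went from 1 to 0 with a 2-fold minimum, no filter beyond 1 count, the 2 groups alone, the replicate block, Eif2s3y as a term or only libraries with it (0 to 1 leaving out 1 library). For that comparison, calls over all genes went from 2477 to 652 (own groups), 2107 (block) and 2216 (no filter, of 15227 genes). Control 9w against control 5w went from 3 to 1 (2-fold) or 6 (DESeq2), with 2 to 5 leaving out 1, and calls over all genes from 4277 to 4784 (DESeq2). Untreated against control 9w went from 1 to 0 (2-fold, own groups, block, Eif2s3y term) or 2 (DESeq2), with 0 to 2. Its calls over all genes went from 220 to 127 (own groups), 99 (block), 2 (term) and 824 (DESeq2). Untreated against HFpEF went from 0 to 1 (DESeq2, Eif2s3y term, without libraries with Bmp10), with 0 to 2. Here 28 calls over all genes became 965, 401 and 1107 in the same order. EMPA + PFD against untreated went from 3 to 0 (2-fold, own groups, Eif2s3y term, without libraries with Bmp10) or 1 (block), with 0 to 3. Over all genes 1501 calls became 5 (own groups), 494 (term), 67 (without libraries with Bmp10) and 1095 (block). EMPA + PFD against EMPA went from 2 to 1 (2-fold, relative log expression, no filter, block), with 0 to 3. Its calls over all genes went from 1203 to 1193 (relative log expression), 864 (no filter) and 432 (block). EMPA + PFD against HFpEF went from 6 to 3 (2-fold, only libraries with Eif2s3y) or 2 (Eif2s3y term), with 4 to 6. The disease difference between weeks went from 2 to 0 (2-fold, own groups) or 1 (upper quartile, no filter, Eif2s3y term, without libraries with Bmp10), with 0 to 2. Over all genes 2473 calls became 1569 (own groups), 2456 (upper quartile), 2200 (no filter), 1896 (term) and 2784 (without libraries with Bmp10). Smaller changes were to 2 in control 9w against control 5w (upper quartile, no filter, own groups, block), to 4 (DESeq2) or 2 (relative log expression) in EMPA + PFD against untreated, to 3 (DESeq2) in EMPA + PFD against EMPA and to 5 (upper quartile, own groups) in EMPA + PFD against HFpEF. In the same order, calls over all genes were 4246, 3969, 3831 and 3870, then 2532 and 1480, then 2118, and then 6009 and 4524. EMPA alone, PFD alone and the sum-of-drugs test stayed at 0 in every alternative run.

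Directions turned as follows (log2, none of them passing). The Eif2s3y term only adds the difference of HFpEF 1 and 3 from HFpEF 2, libraries in neither group, to the comparisons of untreated with control 9w, EMPA and EMPA + PFD, and is no test of them. In untreated against HFpEF and the difference between weeks it repeats leaving out HFpEF 2. With it, EMPA + PFD against untreated gave Tgfb2 0.48, Tgfbr2 0.10, Smad2 0.38 and Ltbp2 1.00, and EMPA gave Tgfb1 0.26, Tgfbr2 0.0152, Tgfbr3 0.19 and Smad2 0.31. Without libraries with Bmp10, EMPA gave Smad3 0.0592, and PFD gave Tgfb2 0.0471, Tgfb3 0.10 and Tgfbr3 0.0553. With the block, PFD gave Tgfb2 0.23. Leaving out 1 library, EMPA ranged from -0.48 to 1.13 (Tgfb2), -0.82 to 1.15 (Tgfb3), -1.16 to 3.53 (Ltbp2) and -0.32 to 0.0592 (Smad3), and PFD from -0.86 to 0.45 (Tgfb2), -0.95 to 0.10 (Tgfb3) and -0.25 to 0.10 (Tgfbr3). Over single genes, 1590 values kept their direction and side of the threshold, 307 no longer passed, 21 newly passed and 24 turned. By Spearman's rho 11 of 30 genes stayed among those most like a member. Only libraries without Eif2s3y were not run where a group would have been left empty. Replicate numbers were checked for pairing of libraries across groups after removing group means. Of 52 same-number pairs 41 had r below 0.1 (median -0.067, range -0.532 to 0.493), as had 58 of 102 other pairs. Within groups of 2 or 3 libraries the values left after removing the mean depend on each other, so this check cannot decide whether libraries are paired. Groups of 2 or 3 libraries limit every comparison. The effect of depth was not tested, and the lowest member count was 34.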
